A study of Mus musculus with 5 samples.

Results

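The ADAM, ADAMTS, MMP and TIMP genes encode the secreted and membrane-bound metalloproteinases that cut extracellular matrix and cell-surface proteins, together with their tissue inhibitors. They were described here in the atria of newborn mice with and without Nkx2-5, the NK2-class homeodomain protein that guides heart development. Members were all protein-coding genes of the deposited table whose symbol starts with Adam and a digit, Adamts, Mmp and a digit, or Timp and a digit, a rule on names that uses no measured value. This rule found 83 of the 40624 genes: 32 ADAM, 19 ADAMTS, 5 ADAMTS-like, 23 MMP and 4 TIMP genes.

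The 2 mutant libraries (5 and 7) came from atria of SLN-Cre; Nkx2-5-flox/flox mice, and the 3 control libraries (2, 4 and 6) from atria of SLN-Cre; Nkx2-5-flox/+ mice. All were C57BL/6 mice at postnatal day 1, and all carried the Cre, so a control atrium also had 1 floxed Nkx2-5 allele. Sln encodes sarcolipin, a calcium pump inhibitor of atrial muscle cells, so other cell types of the atrium keep their Nkx2-5 alleles as far as Sln is silent in them. PolyA RNA of whole atrial tissue was sequenced, and in such bulk samples fewer cells of a type and less RNA per cell cannot be told apart. Nothing in the labels states that each library is a different animal, so p-values reflect only how far these samples spread, which may be technical.

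Reads counted to genes came to 78.8 and 69.6 M in mutants 5 and 7, and to 58.5 to 60.9 M in the controls. Nkx2-5 itself stood at 3.80 and 3.42 RPKM in mutant libraries, against 50.3, 47.3 and 46.8 RPKM in control libraries. Its log2 fold change was -3.74 ± 0.09 (SE), with an adjusted p of 7.0e-07 in edgeR's quasi-likelihood test. By a chi-square on raw counts, which also grows with depth, the mutant libraries stood as far from each other as from some controls. Per degree of freedom it was 85.4 between mutants 5 and 7, and 81.1 to 123.6 between a mutant and a control. Between controls it was 20.3 to 33.9. By ranks the mutants stood closer to each other than to any control. Spearman's rho was 0.9916 between the mutants, 0.9870 to 0.9897 between a mutant and a control, and 0.9921 to 0.9942 between controls. Xist and Ddx3y counts showed 1 male library in each group, mutant 5 and control 4. Markers of atrial muscle summed to 56666 to 61519 CPM (TMM-scaled counts per M reads) in mutant libraries and 59080 to 61600 CPM in control libraries. Of these 7 markers only Nppa, the precursor of atrial natriuretic peptide, passed in edgeR, with a log2 fold change of -2.58 ± 0.18 (SE; adjusted p = 9.6e-04). RPKM here means CPM divided by the deposited gene length in kilobases, so that genes can be compared with each other.

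ADAMs are membrane proteins whose protease members release growth factors, cytokines and adhesion molecules from the cell surface, a step called ectodomain shedding. ADAMTS enzymes are secreted and bind matrix through thrombospondin repeats, and several of them cut the large proteoglycan versican, which fills the early cardiac jelly. The ADAMTS-like proteins share the repeats but have no protease domain. MMPs cut collagens, laminins and other matrix proteins, and TIMPs block the active sites of MMPs and of some ADAM and ADAMTS enzymes.

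A total of 58 members had enough counts to be tested. In mutant atria 4 of them rose (Adamtsl5, Adam22, Adam4 and Adam12) and 8 fell (Adamtsl4, Adamts8, Adamtsl1, Mmp19, Timp2, Adam11, Timp1 and Adamtsl3), at an adjusted p under 0.05 over all tested genes in edgeR. The 12 calls are 20.7% of the tested members, and over all 17835 tested genes 6.58% were called, 3.02% higher and 3.57% lower. These families were chosen with earlier results of these data known, so the members' share is not independent evidence. The other 46 did not pass. Of the 58, 22 had an unadjusted p under 0.05 in edgeR, Adam4 and Adamts18 among them, and so had 20.8% of all tested genes. Adam4 passed the filter on low counts only through the mutant libraries and so had to differ, as Adamts18, which was not called, did through the controls. Without these 2 genes 3 members rose and 8 fell among 56 tested. Called differences of 2-fold or more were seen for Adamts8 and Adam4 alone. Among the 56 it was Adamts8 only, 1 gene, and 1.73% of all tested genes had such a difference. The median log2 fold change of the tested members was 0.00, with 29 above 0 and 29 below it, and that of all tested genes was 0.01. Without regard to sign the medians were 0.25 for the members and 0.15 for all tested genes.

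**Figure D1:**
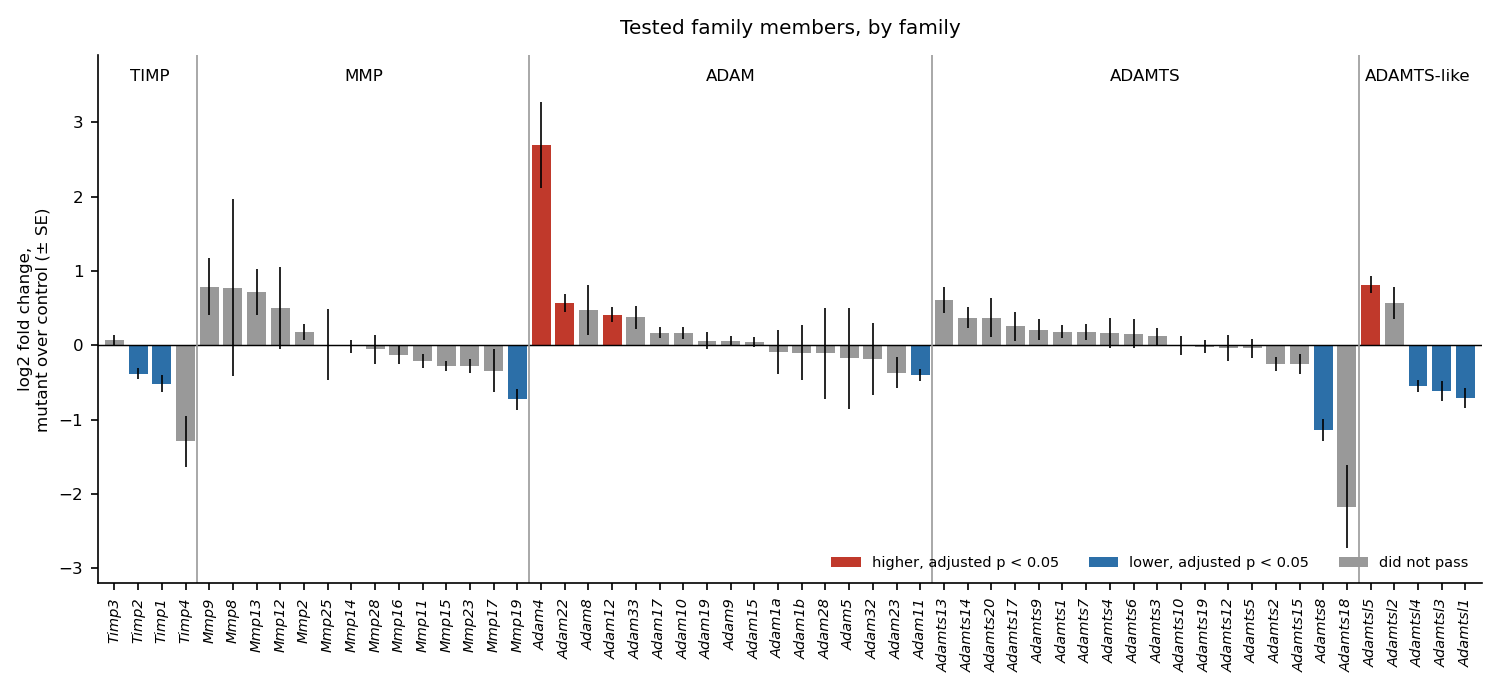
Log2 fold change of the 58 tested members, mutant over control atria, with 1 standard error from edgeR, grouped by family and sorted within each. Red bars are the 4 members called higher, blue bars the 8 called lower, and grey bars the 46 that did not pass. Blue are 3 of the 5 ADAMTS-like genes and 2 of the 4 TIMP genes, where 3.57% of all tested genes were called lower.

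How many members were called hung on single libraries, as it did for all genes. With edgeR, 1 member was higher and 3 were lower without control 2, without control 4 or without mutant 7, where 2.99%, 3.01% and 4.68% of all tested genes were called in either direction. The counts were 3 and 3 without control 6 and 6 and 6 without mutant 5, where 4.22% and 9.33% of all tested genes were called. DESeq2 on all 5 libraries called 5 members higher and 11 lower, against 5.39% and 6.02% of all genes it tested. At an adjusted p under 0.01 in edgeR, Adamtsl5, Adamtsl4 and Adamts8 were left, and 2.19% of all tested genes were. Adamtsl5, Adamtsl4 and Adamts8 kept their calls whichever library was left out, with highest edgeR adjusted p-values of 0.0359, 0.0433 and 0.0383. The other 9 called members each lost theirs on leaving out at least 3 of the 5 libraries in turn.

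Mutant values lay wholly above or below the control values for 25 tested members, or 43.1%, as they did for 37.9% of all tested genes. They were above for 11 members and below for 14. Of the 25 members not tested, 17 had no count in any library and 8 had a few. Among the 17 were 12 ADAM genes, which belong to the testis-type and other little-studied ADAMs (Adam2, Adam7, Adam18, Adam24, Adam25, Adam26a, Adam26b, Adam29, Adam34, Adam39, Adam6a and Adam6b), and 5 MMP genes (Mmp1a, Mmp1b, Mmp7, Mmp10 and Mmp20).

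Levels differed widely between members. At least 1 RPKM on average was reached by 38 members in mutant atria and 37 in control atria. At least 30 RPKM was reached by 4 members in mutant atria and 3 in control atria. The highest levels were those of the membrane-type metalloproteinase Mmp14, the inhibitor Timp2, the gelatinase Mmp2 and the sheddase Adam10.

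**Figure D2:**
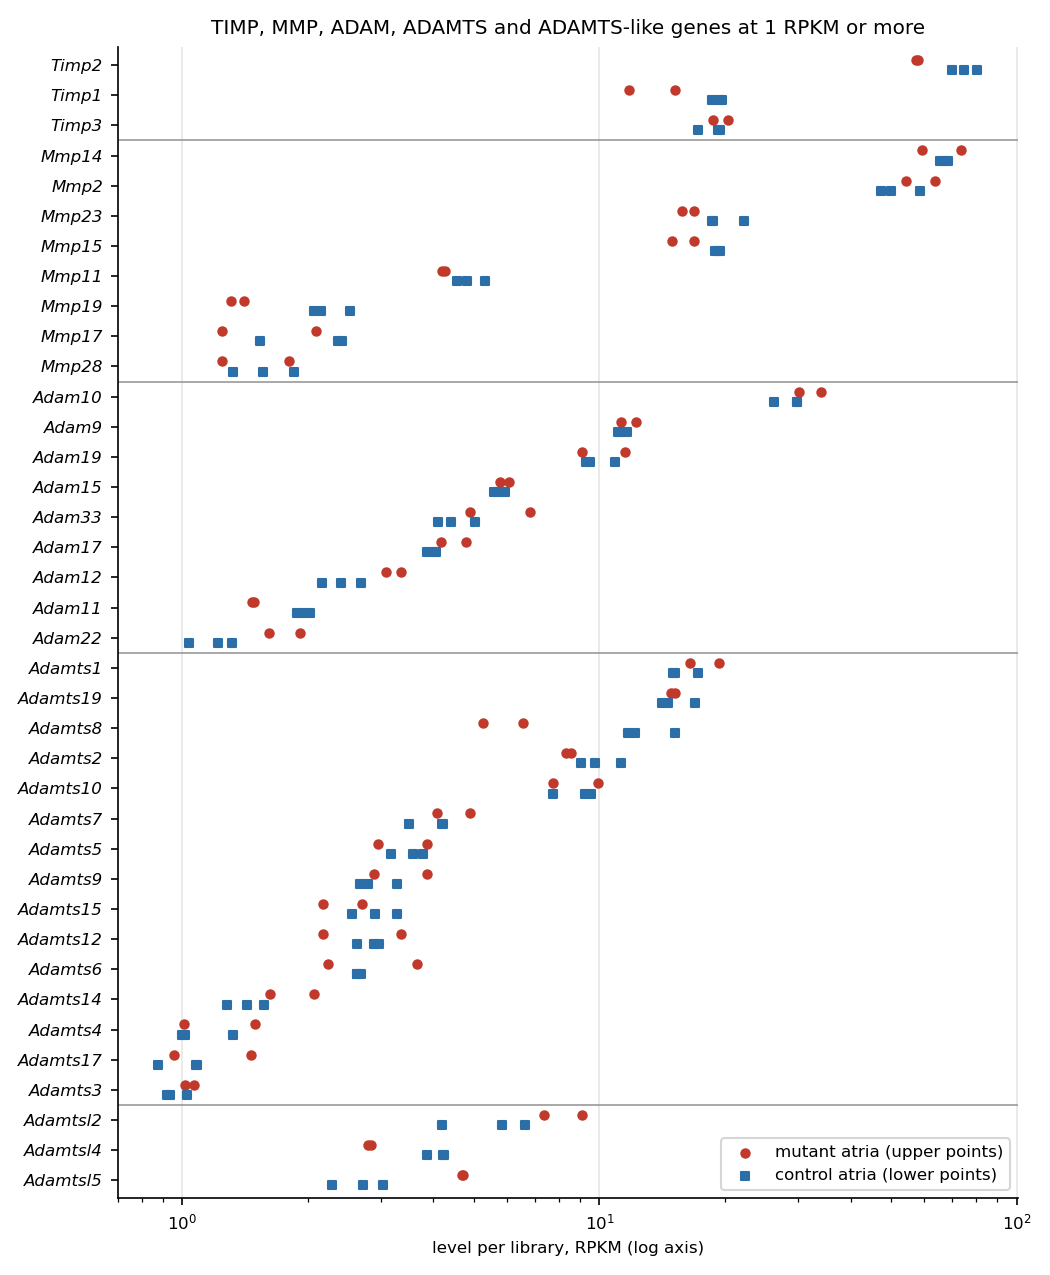
RPKM in each library on a log axis for the members with a mean of at least 1 RPKM in either group, in blocks by family and sorted by control mean within a block. Red circles are the 2 mutant libraries and blue squares the 3 control libraries. Adamts8 stands out with red circles well left of the blue squares, and Adamtsl5 with red circles to the right.

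Among the inhibitors, 2 of 4 fell and none rose, where 3.57% of all tested genes fell and 3.02% rose. Timp2 (ENSMUSG00000017466; coding span on chromosome 11, 118165013 to 118216404, mm9, minus strand) blocks MMPs and also takes part in the activation of pro-MMP2 by MMP14. It had 58.0 and 57.3 RPKM in mutants 5 and 7, against 80.5, 74.7 and 70.1 RPKM in controls 2, 4 and 6. Both mutant values lay below every control value, and Timp2, the highest of all members in control atria, ranked 3 in mutant atria. The means were 57.7 ± 0.46 RPKM (SD, n = 2) in mutants and 75.1 ± 5.2 RPKM (SD, n = 3) in controls, a log2 fold change of -0.38 ± 0.08 (SE) with an adjusted p of 0.024 in edgeR. The call was lost without control 2, control 4 or mutant 7, with a highest edgeR adjusted p of 0.106.

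Timp1 (ENSMUSG00000001131; coding span on chromosome X, 20448165 to 20451758, mm9, plus strand) is an inducible secreted inhibitor. Its levels were 15.2 and 11.8 RPKM in mutant libraries 5 and 7, against 19.7, 18.6 and 19.5 RPKM in control libraries 2, 4 and 6. Mutant values were below all control values, within the females (11.8 RPKM in mutant 7, against 19.7 and 19.5 RPKM in controls 2 and 6) and between the males (15.2 RPKM in mutant 5, against 18.6 RPKM in control 4). The log2 fold change was -0.51 ± 0.11 (SE), with an adjusted p of 0.031 in edgeR. It lost the call whichever library other than mutant 5 was left out, with a highest edgeR adjusted p of 0.107. Timp1 lies within Syn1 on the opposite strand but shares no exonic base with it.

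Timp3 binds to the matrix and inhibits ADAM17 and aggrecan-cutting ADAMTS enzymes as well as MMPs. It had 18.7 and 20.4 RPKM in mutant libraries, against 19.5, 17.3 and 19.2 RPKM in control libraries. The groups overlapped, and the log2 fold change of 0.07 ± 0.08 (SE) did not pass (adjusted p = 0.69, edgeR). Timp3 shares 1733 exonic bases with Syn3 on the opposite strand, and Syn3 had 30 to 42 counts in mutant libraries and 34 to 45 in control libraries.

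Timp4, known as the inhibitor most confined to heart and brain, was by far the lowest of the 4. It stood at 0.281 and 0.186 RPKM in mutant libraries, against 0.539, 0.617 and 0.574 RPKM in control libraries. All mutant values were below the controls, with 49 counts over the 2 mutant libraries and 147 over the 3 control libraries. That is a depth-corrected ratio of 0.410, with an exact 95% interval of 0.291 to 0.570 that covers counting error only. Its log2 fold change of -1.29 ± 0.34 (SE) did not pass in edgeR (adjusted p = 0.058). With DESeq2 it passed (adjusted p = 0.033), and with no filter on low counts it also passed in edgeR (adjusted p = 0.045). With limma-voom, sex as a covariate or any single control left out it did not pass. The authors' deposited adjusted p was 0.060. Its host gene on the opposite strand, Syn2, shares 90 exonic bases with it. Syn2 stood at 2.55 and 2.84 CPM in mutant libraries, against 5.12, 5.92 and 2.42 CPM in control libraries, with overlap, and its part in the Timp4 values was not tested.

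Summed over the 4 inhibitors, TIMP levels were 92.1 and 89.7 RPKM in mutant libraries, against 120, 111 and 109 RPKM in control libraries. Timp2 made up 63.4% of the sum in mutant atria and 66.1% in control atria. Timp3 made up 21.5% in mutant atria and 16.4% in control atria. The summed MMP levels were 155 and 181 RPKM in mutant libraries, against 179, 169 and 163 RPKM in control libraries, so these groups overlapped. The ratio of summed MMP to summed TIMP was 1.69 and 2.02 in mutants 5 and 7, against 1.49, 1.52 and 1.50 in controls 2, 4 and 6. Both mutant ratios lay above the controls, with means of 1.85 ± 0.24 (SD, n = 2) in mutants and 1.50 ± 0.017 (SD, n = 3) in controls. These sums describe RNA of chosen genes and were given no test.

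**Figure D3:**
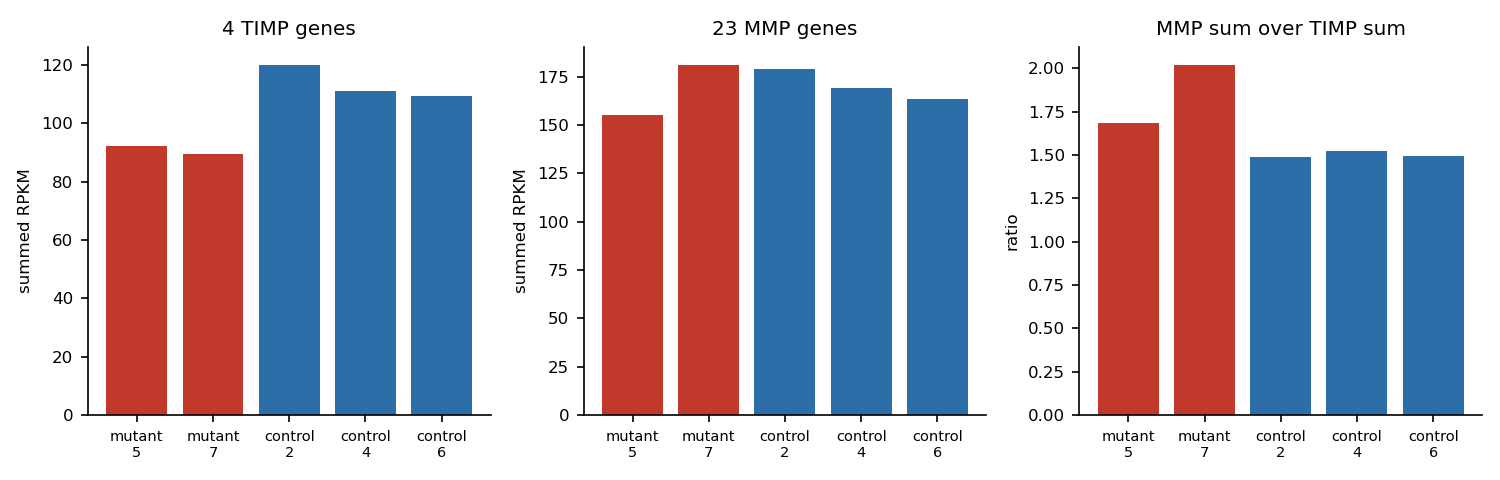
Summed RPKM of the 4 TIMP genes (left), of the 23 MMP genes (middle) and their ratio (right), 1 bar per library, red for mutant and blue for control, all axes from 0. The TIMP bars are at 92.1 and 89.7 in mutants and at 109 or more in controls, while the MMP bars of the groups overlap.

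Of the MMP genes, 14 of 23 were tested, 1 fell and none rose. Mmp19 encodes a secreted MMP that cuts basement membrane proteins. It stood at 1.41 and 1.31 RPKM in mutant libraries, against 2.15, 2.07 and 2.53 RPKM in control libraries, without overlap. The log2 fold change was -0.73 ± 0.14 (SE), with an adjusted p of 0.019 in edgeR. The call was lost without control 2, control 6 or mutant 7 (highest edgeR adjusted p of 0.064). Mmp19 shares 789 exonic bases with Tmem198b on the opposite strand, and the sources used here do not state whether reads were counted by strand. Tmem198b had 1984 and 1784 counts in mutant libraries and 1710 to 1895 counts in control libraries.

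The most abundant proteases did not pass. Mmp14, the membrane-type collagenase that activates pro-MMP2 at the cell surface, had 59.4 and 73.4 RPKM in mutant libraries, against 67.3, 68.4 and 65.5 RPKM in control libraries. The mutant values lay on either side of the controls, and the log2 fold change was -0.01 ± 0.09 (SE; adjusted p = 0.95, edgeR). Mmp2, the gelatinase of connective tissue cells, had 54.4 and 63.7 RPKM in mutant libraries, against 58.7, 50.03 and 47.4 RPKM in control libraries. Its groups overlapped as well, with a log2 fold change of 0.18 ± 0.11 (SE; adjusted p = 0.39, edgeR). Mmp14 and Mmp2 made up 39.4% and 35.1% of the summed MMP level in mutant atria, and 39.3% and 30.5% in control atria.

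Mmp15, another membrane-type MMP, had 14.9 and 16.8 RPKM in mutant libraries, against 18.9, 19.5 and 19.2 RPKM in control libraries. It lay lower in both mutants and narrowly missed the threshold, with a log2 fold change of -0.27 ± 0.07 (SE) and an adjusted p of 0.0502 in edgeR. It passed with library totals alone, with either other filter and with DESeq2. The edgeR adjusted p-values were 0.030, 0.0247 and 0.0489, and DESeq2's was 0.0120. With DESeq2 size factors, limma-voom, sex as a covariate or any single control left out it did not pass. The authors' deposited adjusted p was 0.149. Leaving out single libraries gave log2 fold changes of -0.37 to -0.19. Mmp23, a membrane-anchored MMP, had 16.8 and 15.8 RPKM in mutant libraries, against 22.2, 18.6 and 18.7 RPKM in control libraries. Mmp11, a stromelysin that acts poorly on collagen, had 4.27 and 4.19 RPKM in mutant libraries, against 5.31, 4.55 and 4.81 RPKM in control libraries. Neither passed in edgeR (log2 fold changes of -0.28 ± 0.09 and -0.21 ± 0.09, SE, adjusted p = 0.12 and 0.24), although both lay below every control. Mmp11 shares 155 exonic bases with Chchd10 on the opposite strand. Chchd10 had 21953 and 17533 counts in mutant libraries and 15046 to 15575 in control libraries, and its part in the Mmp11 values was not tested.

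At the low end, the collagenase Mmp13 had 0.340 and 0.520 RPKM in mutant libraries, against 0.317, 0.220 and 0.249 RPKM in control libraries. The gelatinase Mmp9, a product mainly of blood-derived cells, had 0.234 and 0.160 RPKM in mutant libraries, against 0.120, 0.0724 and 0.148 RPKM in control libraries. Both lay above every control in both mutants. Their log2 fold changes of 0.71 ± 0.31 and 0.79 ± 0.38 (SE) did not pass in edgeR (adjusted p = 0.24 and 0.29). Beside Mmp9, the 7 neutrophil markers summed to 4.09 and 4.32 CPM in mutant libraries and 1.24 to 2.36 CPM in control libraries; 1 of the 5 tested markers passed, higher, and their part in the Mmp9 values was not tested.

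The ADAMTS-like genes had 4 calls among 5 members, 1 higher and 3 lower, where 3.02% of all tested genes were called higher and 3.57% lower. Adamtsl5 (ENSMUSG00000043822; coding span on chromosome 10, 79803900 to 79808389, mm9, minus strand) encodes a secreted glycoprotein that binds fibrillin microfibrils. It stood at 4.69 and 4.70 RPKM in mutant libraries, against 2.71, 3.03 and 2.28 RPKM in control libraries. The mutant libraries were nearly equal and well above the highest control. The means were 4.70 ± 0.0053 RPKM (SD, n = 2) in mutants and 2.67 ± 0.38 RPKM (SD, n = 3) in controls, and Adamtsl5 rose 1.76-fold (log2 fold change 0.81 ± 0.11, SE; adjusted p = 0.0055, edgeR).

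Adamtsl4 (ENSMUSG00000015850; coding span on chromosome 3, 95480756 to 95489398, mm9, minus strand) promotes fibrillin microfibril formation and is best known from displaced eye lenses. It had 2.78 and 2.83 RPKM in mutant libraries, against 4.24, 4.22 and 3.86 RPKM in control libraries. Replicates of each group stood close together and the groups were well apart. Its log2 fold change was -0.55 ± 0.08 (SE), with an adjusted p of 0.0070 in edgeR.

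Adamtsl1 had 0.370 and 0.344 RPKM in mutant libraries, against 0.549, 0.541 and 0.664 RPKM in control libraries. Adamtsl3 had 0.300 and 0.314 RPKM in mutant libraries, against 0.449, 0.502 and 0.460 RPKM in control libraries. Both encode secreted matrix proteins, and the mutant values of each lay below every control. The log2 fold changes were -0.71 ± 0.14 and -0.62 ± 0.14 (SE), with adjusted p-values of 0.019 and 0.033 in edgeR. Adamtsl1 lost the call without control 4, control 6 or mutant 7 (highest edgeR adjusted p of 0.062), and Adamtsl3 whichever library was left out (highest 0.127) and with sex as a covariate, which was chosen after seeing the data (0.058).

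Adamtsl2, which binds latent TGF-beta binding protein and fibrillin, had 7.36 and 9.09 RPKM in mutant libraries, against 6.63, 5.85 and 4.18 RPKM in control libraries. It lay higher in both mutants but did not pass in edgeR (log2 fold change 0.57 ± 0.22, SE, adjusted p = 0.23), and passed in DESeq2 (adjusted p = 0.020). The authors' deposited adjusted p was 0.163.

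The promoters of Adamtsl5 and Adamtsl4 are shown because these are the ADAMTS-like genes whose opposite calls held whichever library was left out. Each sequence runs from 250 bases before to 50 bases after the RefSeq transcription start, 5′ to 3′ on the minus strand of GRCm38.p6, at chr10:80348399-80348698 and chr3:95687868-95688167. Capitals mark AAGTG, the core of sites bound by the NK2 class of homeodomain factors to which Nkx2-5 belongs, read on either strand, so CACTT is a match on the other strand.
Adamtsl5: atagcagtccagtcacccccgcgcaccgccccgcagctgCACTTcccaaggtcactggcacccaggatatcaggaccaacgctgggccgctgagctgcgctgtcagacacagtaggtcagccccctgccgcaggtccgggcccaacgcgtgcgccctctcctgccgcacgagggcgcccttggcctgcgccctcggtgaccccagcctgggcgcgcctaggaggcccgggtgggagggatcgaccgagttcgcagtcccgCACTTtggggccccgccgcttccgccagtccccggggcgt
Adamtsl4: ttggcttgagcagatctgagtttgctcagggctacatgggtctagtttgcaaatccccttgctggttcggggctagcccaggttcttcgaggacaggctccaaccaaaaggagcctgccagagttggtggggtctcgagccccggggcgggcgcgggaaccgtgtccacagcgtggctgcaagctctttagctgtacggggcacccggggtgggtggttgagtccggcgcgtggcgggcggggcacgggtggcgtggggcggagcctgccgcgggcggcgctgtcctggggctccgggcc
The Adamtsl5 window holds 2 matches, both on the other strand, and the Adamtsl4 window none. At least 1 match was found in 49.99% of the 27025 genes with a promoter in the RefSeq table, in 30 of the 52 members with one (57.7%), and in 3 of the 6 called members with one. The longer form TNAAGTG, which contains AAGTG, was searched on both strands too. It was found in 13.1% of all genes with a promoter, in 8 of the 52 members (15.4%) and in 0 of the 6 called members. A match describes these letters and is not a binding site.

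Of the ADAMTS proteases, 18 of 19 were tested, 1 fell and none rose. Adamts8 (ENSMUSG00000031994; coding span on chromosome 9, 30750422 to 30769803, mm9, plus strand) is a proteoglycan-cutting ADAMTS with reported anti-angiogenic activity. It had 6.56 and 5.27 RPKM in mutants 5 and 7, against 11.7, 12.2 and 15.2 RPKM in controls 2, 4 and 6. Both mutant values were far below the lowest control, and Adamts8 ranked 17 among the members in mutant atria and 11 in control atria. The means were 5.91 ± 0.91 RPKM (SD, n = 2) in mutants and 13.0 ± 1.9 RPKM (SD, n = 3) in controls, a log2 fold change of -1.14 ± 0.15 (SE) with an adjusted p of 0.0075 in edgeR. Adamts8 shares 489 exonic bases with the antisense gene Gm29724, whose reads were not analysed here.

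The other 6 proteoglycanases did not pass. Adamts1, which cuts versican and aggrecan and is active in the trabeculating heart, had 16.5 and 19.4 RPKM in mutant libraries, against 15.0, 15.1 and 17.2 RPKM in control libraries (log2 fold change 0.18 ± 0.09, SE; adjusted p = 0.29, edgeR). Adamts5, a versicanase of valve maturation, had 2.94 and 3.87 RPKM in mutant libraries, against 3.78, 3.17 and 3.58 RPKM in control libraries. Adamts9, a further versicanase, had 2.88 and 3.85 RPKM in mutant libraries, against 2.67, 2.79 and 3.27 RPKM in control libraries. The groups overlapped for all 3 genes. Adamts15, the divergent neighbour of Adamts8 at a distance of 20.6 kb between coding spans, had 2.18 and 2.70 RPKM in mutant libraries, against 2.55, 2.89 and 3.27 RPKM in control libraries. Its groups overlapped too, and its log2 fold change of -0.25 ± 0.13 (SE) did not pass (adjusted p = 0.34, edgeR). Versican RNA (Vcan) itself was at 2.75 and 5.26 RPKM in mutant libraries, against 3.11, 4.61 and 3.12 RPKM in control libraries, with widely spread values in both groups (adjusted p = 0.88, edgeR).

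The 3 procollagen N-proteinases, which trim the amino ends of fibrillar procollagens, did not pass either. Adamts2 had 8.32 and 8.53 RPKM in mutant libraries, against 11.3, 9.75 and 9.03 RPKM in control libraries. Adamts14 had 1.62 and 2.07 RPKM in mutant libraries, against 1.28, 1.43 and 1.57 RPKM in control libraries. The first lay below and the second above every control, with log2 fold changes of -0.25 ± 0.09 and 0.37 ± 0.14 (SE; adjusted p = 0.17 and 0.18, edgeR).

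Among the remaining ADAMTS genes, Adamts19, a protease of developing heart valves, was the highest. It had 14.9 and 15.2 RPKM in mutant libraries, against 14.6, 14.1 and 16.9 RPKM in control libraries, and the log2 fold change was -0.02 ± 0.09 (SE; adjusted p = 0.94, edgeR). Adamts13, the protease of von Willebrand factor, had 0.613 and 0.711 RPKM in mutant libraries, against 0.462, 0.464 and 0.376 RPKM in control libraries. Its groups did not overlap, but its log2 fold change of 0.61 ± 0.18 (SE) did not pass (adjusted p = 0.086, edgeR), and with DESeq2 the adjusted p was 0.044. Adamts18 was near the lower limit of measurement, at 0.0206 and 0.0107 RPKM in mutant libraries, against 0.0619, 0.108 and 0.0474 RPKM in control libraries. It entered the test only through the control libraries, with 16 counts in the mutants and 89 in the controls, a depth-corrected ratio of 0.221 (exact 95% interval 0.121 to 0.379, counting error only). Its log2 fold change of -2.17 ± 0.56 (SE) had an adjusted p of 0.055 in edgeR. It passed with library totals alone (0.049), with no filter (0.017), with sex as a covariate (0.035) and with DESeq2 (0.021). With limma-voom (0.073) or any single control left out (highest edgeR adjusted p of 0.158) it did not pass. The authors' deposited adjusted p was 0.217.

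Of the ADAM genes, 17 of 32 were tested, 3 rose and 1 fell, and 2 rose without Adam4. Over all tested genes 3.02% rose and 3.57% fell. The 9 sheddases were all tested, and 8 of them had a log2 fold change above 0, with a median of 0.16. Of all 17835 tested genes, 9158 had a log2 fold change above 0. Groups overlapped for 6 of the 9 sheddases, and Adam9 and Adam19 turned below 0 without mutant 7. Adam12, which releases HB-EGF and IGF-binding proteins, was the only one that passed. It had 3.08 and 3.34 RPKM in mutant libraries, against 2.41, 2.17 and 2.68 RPKM in control libraries, without overlap. It rose 1.33-fold (log2 fold change 0.41 ± 0.10, SE; adjusted p = 0.048, edgeR). The call was lost without control 2, control 4 or mutant 7 (highest edgeR adjusted p of 0.151) and with library totals alone.

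Adam10, the sheddase of Notch receptors and cadherins, was the fourth highest of all members in both groups. It had 30.1 and 34.1 RPKM in mutant libraries, against 29.7, 26.3 and 29.8 RPKM in control libraries. Adam17, which releases TNF and EGF-receptor ligands, had 4.18 and 4.80 RPKM in mutant libraries, against 4.03, 3.86 and 4.06 RPKM in control libraries. Mutant values of both lay above every control by a small margin, and the log2 fold changes of 0.16 ± 0.08 and 0.17 ± 0.08 (SE) did not pass (adjusted p = 0.32 and 0.27, edgeR). Adam17 shares 311 exonic bases with Iah1 on the opposite strand. Iah1 had 2902 and 2145 counts in mutant libraries and 1592 to 1637 in control libraries, and its part in the Adam17 values was not tested. Adam9, a widely expressed sheddase, had 11.3 and 12.2 RPKM in mutant libraries, against 11.1, 11.2 and 11.6 RPKM in control libraries. Adam19, which is required for endocardial cushion and septal development in mice, had 9.10 and 11.5 RPKM in mutant libraries, against 9.29, 9.47 and 10.9 RPKM in control libraries. Groups overlapped for Adam9 and Adam19, with log2 fold changes of 0.05 ± 0.07 and 0.06 ± 0.11 (SE; adjusted p = 0.72 and 0.83, edgeR).

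The ADAMs without protease activity, best known as ligands and receptors of nerve cells, had 1 call in each direction among 3 genes. In either direction 6.58% of all tested genes were called. Adam22, a receptor of the LGI proteins, had 1.61 and 1.91 RPKM in mutant libraries, against 1.22, 1.03 and 1.32 RPKM in control libraries. Adam11 had 1.48 and 1.47 RPKM in mutant libraries, against 2.02, 1.93 and 1.88 RPKM in control libraries. Neither gene's groups overlapped. Adam22 rose (log2 fold change 0.56 ± 0.12, SE; adjusted p = 0.028, edgeR) and Adam11 fell (log2 fold change -0.40 ± 0.08, SE; adjusted p = 0.027, edgeR). Adam22 lost its call without control 2, control 4 or mutant 7 (highest edgeR adjusted p of 0.122), and Adam11 whichever library was left out (highest 0.133) and with sex as a covariate (0.054). Adam23, the third of this kind, did not pass (adjusted p = 0.38, edgeR). Markers of Schwann cells and neurons summed to 6.27 and 9.83 CPM in mutant libraries and 9.13 to 10.1 CPM in control libraries, with log2 fold changes of the 4 genes between -0.36 and 0.18; their part in the Adam22 and Adam11 values was not tested.

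Adam4, a member of the testis group of ADAMs, was called on very few reads. It had 17 and 21 counts in mutant libraries, against 2, 2 and 3 counts in control libraries. It passed the filter on low counts only through the mutant libraries and therefore had to differ. The depth-corrected ratio of 38 to 7 counts was 6.68, with an exact 95% interval of 2.95 to 17.7 that covers counting error only. The adjusted p was 0.030 in edgeR (log2 fold change 2.69 ± 0.58, SE), and the call was lost whichever library was left out (highest 0.159). Adam4 lies within Cox16 on the same strand without sharing an exonic base, and Cox16 stood at 9.23 and 8.45 CPM in mutant libraries, against 10.2, 10.3 and 8.82 CPM in control libraries.

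**Figure D4:**
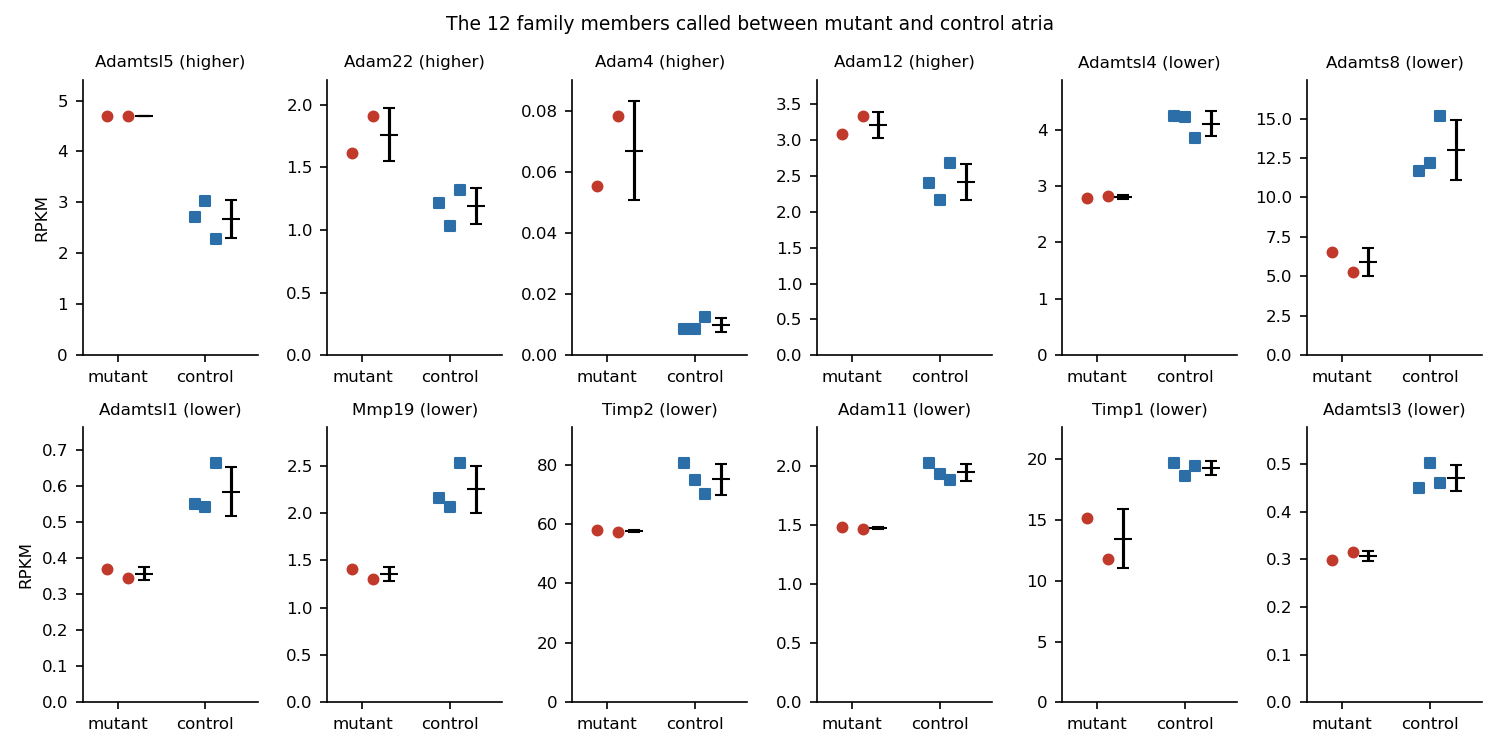
RPKM of the 12 called members in each library, mutant left (red circles) and control right (blue squares), with the mean and SD as black bars and every axis starting at 0. The first 4 panels are the genes called higher and the other 8 those called lower; no panel shows an overlap, and Adamts8 is at or below 6.56 RPKM in mutants and at or above 11.7 RPKM in controls.

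In the authors' deposited table, 66 members had an adjusted p and 12 of them were under 0.05, 5 higher and 7 lower, against 4.54% of all genes with a deposited adjusted p. Of these, 11 were also called here with edgeR. The exceptions were Adamts13 in the authors' deposited table alone and Adam11 with edgeR alone.

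Many genes of these families are expressed by connective tissue cells, and markers of several cell types differed between the same libraries. Beside the marker calls below, 3.02% of all tested genes were called higher and 3.57% lower in edgeR. The 7 fibroblast markers summed to 5343 and 5561 CPM in mutant libraries and to 6563 to 7605 CPM in control libraries. All 7 had a log2 fold change below 0, and 2 of them (Dcn and Lum) fell in edgeR. The 6 epicardial markers summed to 717 and 723 CPM in mutant libraries and 1059 to 1239 CPM in control libraries, and 5 of the 6 fell. Smooth muscle markers summed to 1596 to 2050 CPM in mutant libraries and 611 to 756 CPM in control libraries, with 1 of 4 called, Acta2, higher. Endothelial markers summed to 1378 to 1684 CPM in mutant libraries and 1213 to 1292 CPM in control libraries, with 1 of 6 called, higher. Erythroid markers summed to 891 to 921 CPM in mutant libraries and 565 to 744 CPM in control libraries, with 1 of 5 called, higher. Mast cell markers summed to 36.6 to 41.1 CPM in mutant libraries and 47.6 to 56.7 CPM in control libraries, with 2 of 4 called, lower. Ventricular muscle markers summed to 23.8 to 41.0 CPM in mutant libraries and 83.8 to 242 CPM in control libraries. None of the 3 genes was called and 1 overlapped between groups, with a median log2 fold change of -1.74. No marker of these lists was at 0 in every library, and their part in the changes of Timp1, Timp2, Adamts8, Mmp19 and the ADAMTS-like genes was not tested.

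The partners and substrates of the families were described from 4 lists with 74 genes, of which 68 were tested. In mutant atria 6 rose and 7 fell in edgeR, or 19.1% of those tested beside the 6.58% of all tested genes. The lists were drawn up with results of these data known and share genes with the fibroblast markers, so this share is not independent evidence. The median log2 fold change of the 68 was 0.10.

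Among 18 tested activators and inhibitors of metalloproteinases, 2 rose and none fell. Thbs1, a thrombospondin that binds MMP2 and MMP9, had 16.9 and 22.3 RPKM in mutant libraries, against 8.06, 10.8 and 10.7 RPKM in control libraries. Both mutant values lay far above the controls, with a log2 fold change of 0.99 ± 0.17 (SE; adjusted p = 0.031, edgeR). Furin, the convertase that removes the propeptide of ADAM, ADAMTS and membrane-type MMP enzymes, had 11.99 and 14.0 RPKM in mutant libraries, against 10.002, 9.79 and 9.03 RPKM in control libraries. It rose as well, by a smaller step (log2 fold change 0.44 ± 0.08, SE; adjusted p = 0.018, edgeR). Furin lost its call whichever library other than mutant 5 was left out (highest edgeR adjusted p of 0.072), and Thbs1 without control 4, control 6 or mutant 7 (highest 0.136). Reck, a membrane-anchored MMP inhibitor, had 4.98 and 5.95 RPKM in mutant libraries, against 5.16, 4.87 and 5.26 RPKM in control libraries, and did not pass (adjusted p = 0.62, edgeR).

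Of 22 tested partners and shed substrates of ADAM10 and ADAM17, 3 rose and 1 fell. Nrg1, the neuregulin that signals from endocardium to heart muscle, had 2.24 and 3.40 RPKM in mutant libraries, against 1.13, 1.35 and 1.31 RPKM in control libraries. Hbegf, a heparin-binding ligand of the EGF receptor, had 6.71 and 6.35 RPKM in mutant libraries, against 3.77, 4.43 and 4.48 RPKM in control libraries. Both ligand RNAs were higher in every mutant library, with log2 fold changes of 1.16 ± 0.19 and 0.63 ± 0.11 (SE; adjusted p = 0.0097 and 0.014, edgeR). Betacellulin (Btc), a further EGF-receptor ligand, fell, with 0.454 and 0.440 RPKM in mutant libraries, against 0.916, 0.788 and 0.913 RPKM in control libraries (log2 fold change -0.96 ± 0.20, SE; adjusted p = 0.026, edgeR). N-cadherin (Cdh2), a junction protein of heart muscle, had 15.8 and 15.7 RPKM in mutant libraries, against 13.6, 12.1 and 12.9 RPKM in control libraries (log2 fold change 0.30 ± 0.07, SE; adjusted p = 0.034, edgeR). Nrg1 kept its call whichever library was left out, Hbegf lost it without control 2 (edgeR adjusted p of 0.051), and Btc and Cdh2 lost it whichever was left out (highest 0.105 and 0.149).

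Of 24 tested matrix substrates, 1 rose and 4 fell, where 3.02% of all tested genes rose and 3.57% fell. Called or not, 13 of the 24 had a log2 fold change above 0 and 11 below it, with a median of 0.17. The small proteoglycans lumican (Lum) and decorin (Dcn), which regulate collagen fibril width, fell by 0.92 ± 0.09 and 0.80 ± 0.08 on the log2 scale (SE; adjusted p = 9.6e-04 and 0.0014, edgeR). Lum had 44.6 and 40.5 RPKM in mutant libraries, against 88.4, 78.1 and 74.8 RPKM in control libraries. Dcn had 141 and 123 RPKM in mutant libraries, against 235, 223 and 231 RPKM in control libraries. Both genes also stand in the fibroblast marker list. Fbln1, a fibulin that acts as cofactor of ADAMTS1, had 41.2 and 38.9 RPKM in mutant libraries, against 69.7, 57.1 and 62.6 RPKM in control libraries (log2 fold change -0.66 ± 0.09, SE; adjusted p = 0.0052, edgeR). Neurocan (Ncan), a proteoglycan best known from brain, was the one that rose, with 1.53 and 1.08 RPKM in mutant libraries, against 0.309, 0.297 and 0.522 RPKM in control libraries (log2 fold change 1.79 ± 0.28, SE; adjusted p = 0.014, edgeR). Lum, Dcn and Fbln1 kept their calls whichever library was left out, and Ncan lost its call without control 2 (edgeR adjusted p of 0.062). The fourth gene that fell was Col3a1, a fibrillar collagen (log2 fold change -0.42 ± 0.09, SE; adjusted p = 0.025, edgeR), whose call was lost whichever library other than mutant 5 was left out (highest 0.117).

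Of 4 tested genes around BMP1, the procollagen C-proteinase, 2 fell. Tll1, a tolloid-like protease required for heart septation in mice, had 2.49 and 2.59 RPKM in mutant libraries, against 5.58, 4.99 and 5.39 RPKM in control libraries. Pcolce, the enhancer of procollagen C-proteinases, had 36.3 and 33.0 RPKM in mutant libraries, against 51.7, 47.9 and 42.3 RPKM in control libraries. Neither gene's groups overlapped, and the log2 fold changes were -1.07 ± 0.09 and -0.45 ± 0.09 (SE; adjusted p = 5.5e-04 and 0.026, edgeR). Tll1 kept its call whichever library was left out, and Pcolce lost its call without control 2, control 4 or mutant 7 (highest edgeR adjusted p of 0.108).

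**Figure D5:**
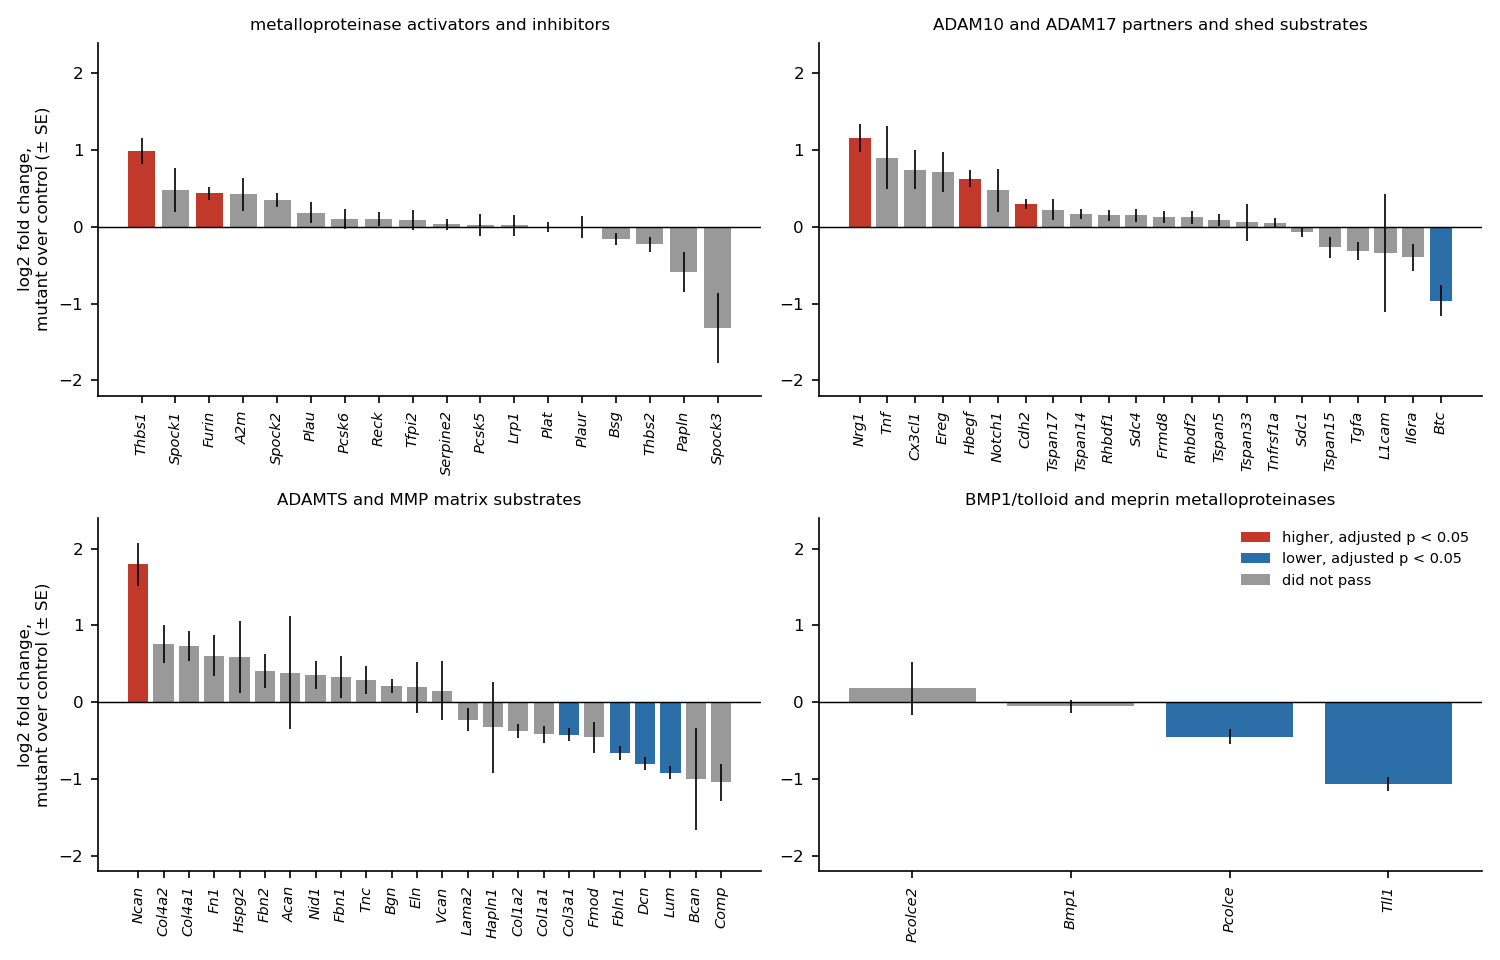
Log2 fold change, mutant over control atria, with 1 standard error from edgeR, of the tested genes in the 4 lists of activators and inhibitors, shed substrates and partners, matrix substrates, and tolloid proteases. Red bars are the 6 genes called higher, blue bars the 7 called lower and grey bars those that did not pass; the matrix panel has 4 blue bars and 1 red bar, and the activator panel 2 red bars and no blue one.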

How the data were processed

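For 5 libraries the authors deposited raw counts by gene, and beside them a pooled RPKM per group, a log2 ratio of mutant over control, and a deposited p-value and adjusted p-value per gene. Per the submitters' processing notes reads were handled on mm9 with a tool set naming TopHat2 (2.0.4), DESeq and HTSeq (0.5.4p3). Use of strand in counting is not given in the sources used. The no_feature entry (3.97% and 5.75% of counts in mutants, 4.26% to 6.03% in controls) and the ambiguous entry (2.45% and 2.31% in mutants, 2.87% to 3.18% in controls) were left out. If strand was not used, reads of exons that overlap on opposite strands would have been set aside as ambiguous or shared.

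Counts were tested with edgeR 4.0.16 in R 4.3.3 on the whole table (filterByExpr, minimum count 10 and minimum total 15, TMM, robust quasi-likelihood test, two-sided, no covariate). Benjamini-Hochberg adjustment ran over 17835 genes. Log2 fold changes put mutant over control (prior count 0.125), and their SE came from dividing them by the root of the F statistic. An exact permutation test of 2 against 3 libraries cannot go below p = 0.1. Libraries of a group differed by more than counting noise, the mutants most. The listed start and end of a coding gene span its coding part. Exon sharing came from GENCODE vM21 and promoters from RefSeq (GRCm38.p6). The procedure was tested on simulated data in which every changed gene differed by 2-fold or more. That test does not cover smaller differences, which most called members had.

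The symbol rule for members uses no values, but these families and the lists were chosen with earlier results of these data known. A gene of the lists is not reported here and stands in none of their counts. Named members were those called, all TIMP genes, the 12 with the highest mean of the authors' RPKM, those with an unadjusted p under 0.05 or a 2-fold difference, and up to 4 called genes per list, beside Nkx2-5, Vcan and Reck. Mmp9, Adam17, Adam23, Adamts5, Adamts9, Adamts15 and Col3a1 were added after their values were seen. Alternatives were DESeq2 size factors, library totals alone, limma-voom (limma 3.58.1), DESeq2 1.42.0, no filter, a filter of 1 CPM in 2 libraries, a threshold of 0.01 and omitting single libraries. A sex covariate was chosen after seeing the data.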

Additional observations from a re-analysis of the deposited data

How the results depend on the processing

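Against 4 members higher and 8 lower in mutant atria, an adjusted p under 0.01 in edgeR left 1 higher (Adamtsl5) and 2 lower (Adamtsl4 and Adamts8), and of the 6 higher and 7 lower list genes it left 1 and 4. DESeq2 called 8 list genes higher and 11 lower, against 5.39% and 6.02% of all genes it tested. Leaving out 1 library gave 1 to 6 members higher and 3 to 6 lower, and 2 to 14 list genes higher and 4 to 6 lower, the 14 without mutant 5. With 1 mutant library left, its spread is assumed to be that of the controls. Adamtsl5, Adamtsl4 and Adamts8 stayed called under all alternatives run. Signs turned only for members that had not passed: leaving out 1 library gave log2 fold changes of -0.011 to 0.11 for Adam9, -0.12 to 0.22 for Adam19, -0.074 to 0.068 for Adamts19, -0.18 to 0.13 for Mmp14 and -0.00 to 0.13 for Timp3. Without mutant 7 they were -0.011 for Adam9, -0.12 for Adam19 and -0.0014 for Timp3, without control 6 it was 0.068 for Adamts19, and without mutant 5 0.13 for Mmp14. Sex as a covariate, chosen after seeing the data, gave 0.0021 for Adamts19. The cause was not tested. Of 385 values of 30 named members under alternatives, 320 kept sign and side of the threshold, 46 lost the call, 13 gained one and 6 turned sign. The median log2 fold change of all genes stayed between -0.03 and 0.01. No paired analysis was possible because the groups share no replicate number. Few counts limit Adam4, Adamts18 and Timp4 among the named members, and 2 mutant libraries limit every spread.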

Other observations

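A set of 10 MMP genes stands side by side on chromosome 9, between 7272555 and 7699357 (mm9, coding spans), and includes the collagenases Mmp1a, Mmp1b, Mmp8 and Mmp13 and the stromelysins Mmp3 and Mmp10. This cluster was nearly silent in newborn atria. Its 10 genes summed to 185 and 445 counts in mutant libraries, against 140, 187 and 214 counts in control libraries, and 5 of them had no count anywhere. Most of the sum came from the macrophage elastase Mmp12, with 107 and 323 counts in mutant libraries, against 88, 135 and 166 counts in control libraries, so the groups overlapped. Macrophage markers summed to 184 to 215 CPM in mutant libraries and 178 to 196 CPM in control libraries.

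Adamts13 and Adamtsl2 lie 72.3 kb apart on the same strand of chromosome 2. Their log2 fold changes of 0.61 and 0.57 were both above 0. Neither passed in edgeR (adjusted p = 0.086 and 0.23), and both passed in DESeq2 (adjusted p = 0.044 and 0.020). The authors' deposited adjusted p was 0.047 for Adamts13 and 0.163 for Adamtsl2. Other neighbours on a shared strand had like signs, such as Adam5 and Adam32 (-0.18 and -0.19), or opposite ones, such as Adamts1 and Adamts5 (0.18 and -0.04). Adamts16, which was not tested, had 3 and 6 counts in mutant libraries, against 0, 40 and 8 counts in control libraries, so that control 4 stood apart.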
